A study of Mus musculus with 36 samples.

Results

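Narrow intronic DHS are the short DNase I hypersensitive sites that lie inside the introns of genes. They were taken from the 52788 DHS of the table by 3 conditions: a width of at most 200 bp, a position inside a gene body with no overlap with an exon, and a distance of more than 1000 bp from every transcription start site (TSS) in the GENCODE vM21 basic annotation of mm10. These conditions gave 10547 DHS, or 20.0% of the table, with widths from 68 to 200 bp and a median of 131 bp. A single width of 130 bp was held by 4386 of them (41.6%). Per the study's methods, peaks were called at a smaller and then at a larger set size and merged. The part of these settings in the widths was not tested. For comparison, 8084 broad intronic DHS met the same conditions but were wider than 200 bp, and 9040 narrow intergenic DHS were as short but lay outside genes.

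A DHS is a stretch of chromatin where regulatory proteins hold the DNA open, so that the enzyme DNase I can cut it. Hypersensitive sites in introns are known to include enhancers, which raise transcription of the host gene or of another gene nearby, and insulators bound by CTCF, the zinc finger protein that anchors chromatin loops. In B-cell progenitors, enhancers are commonly bound by EBF1, PAX5, E2A, RUNX1 and ETS family proteins, and Ikaros binds regulatory DNA as a zinc finger factor that recruits the NuRD complex, which combines nucleosome remodelling with histone deacetylation.

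DNase-seq libraries, 36 in all, were made from B3, an established line of mouse pre-B cells. The Ikaros line carries an MSCV retroviral vector with HA-tagged Ikaros fused to the hormone-binding domain ERt2 and GFP, so that 4-hydroxytamoxifen (4-OHT) moves the fusion protein into the nucleus. The control line carries the vector with ERt2 and without Ikaros. Both lines were sampled at 0, 2, 6, 12, 18 and 24 h with 3 replicates per group, numbered 4, 5 and 6 for batches 11, 12 and 13, and with 0.5 µM 4-OHT. The study's methods say that cells of the 0 h groups received no 4-OHT and were collected apart from the others, so that time and collection cannot be told apart in any comparison with 0 h. Ikaros is supplied here by a retroviral vector in a single cultured line, which limits the cells as a model of pre-B cells in the animal.

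Several features of the whole table bear on every result. A DHS lay within 1000 bp of a TSS for 9 of 10 B-lineage marker genes and for 0 of 10 markers of other lineages. Values are log2 normalised read densities (RPKM), corrected for noise by the authors, and the depth behind each value is unknown because the table holds no counts. The 12 group means of the members span only 6 of 11 possible dimensions, so that the mean of a group is partly fixed by the means of the others and comparisons at different times are not independent of each other. The Ikaros 2 h mean, for example, was the highest or the lowest of the 12 means in 0 of 10547 members. Libraries of control cells and of both 0 h groups varied more between replicates than those of Ikaros cells at 2 to 24 h, and results that rest on them are given with single libraries left out.

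The sequences below belong to the members with the highest levels and to members with differences between the lines, with and without the letters that were searched. They are the plus strand of mm10 (GRCm38.p6 from RefSeq), 5′ to 3′, from the deposited start to the deposited end, and the start may be off by 1 base because the file does not say whether it counts from 0. Capitals mark the letters of the motifs that were searched. In the first set are the members with the highest levels, a pair in intron 1 of Pax5 (chr4:44706069-44706239 as a and chr4:44705296-44705482 as b) and 1 in intron 1 of Hdac7 (chr15:97821321-97821484). Pax5 encodes the factor that commits cells to the B lineage, and Hdac7 a histone deacetylase. The capitals mark CAGCTG and the Runx letters in Pax5 a, the EBF letters in Pax5 b, and CACCTG, the Ikaros core and the Foxo letters in Hdac7.
Pax5 a: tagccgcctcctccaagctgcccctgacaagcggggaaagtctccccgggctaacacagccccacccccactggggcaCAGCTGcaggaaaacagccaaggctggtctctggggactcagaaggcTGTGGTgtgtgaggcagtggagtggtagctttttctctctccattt
Pax5 b: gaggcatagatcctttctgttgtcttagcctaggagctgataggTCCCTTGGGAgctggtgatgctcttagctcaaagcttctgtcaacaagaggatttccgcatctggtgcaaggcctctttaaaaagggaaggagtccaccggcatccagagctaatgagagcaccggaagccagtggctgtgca
Hdac7: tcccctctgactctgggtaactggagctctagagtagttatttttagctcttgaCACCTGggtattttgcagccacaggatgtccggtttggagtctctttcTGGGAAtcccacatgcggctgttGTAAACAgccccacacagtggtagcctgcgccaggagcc

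The second set holds members with the CTCF core that were lowest in Ikaros cells at 0 h, in Galntl6 (chr8:57966800-57966940), Gm12239 (chr11:55981795-55981924) and Spock1 (chr13:57721655-57721798), together with a member of Kcnip4 (chr5:49370809-49370939), 1 of Mef2c (chr13:83656921-83657053) and 1 of Pik3r1 (chr13:101694103-101694238). The capitals mark the CTCF core in each of them. They also mark CAGCTG in Galntl6, the ETS letters in Pik3r1, and in Mef2c the Runx letters, which share bases with the CTCF core.
Galntl6: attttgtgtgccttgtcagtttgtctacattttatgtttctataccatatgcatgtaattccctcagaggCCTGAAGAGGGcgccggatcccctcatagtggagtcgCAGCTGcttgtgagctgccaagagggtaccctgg
Gm12239: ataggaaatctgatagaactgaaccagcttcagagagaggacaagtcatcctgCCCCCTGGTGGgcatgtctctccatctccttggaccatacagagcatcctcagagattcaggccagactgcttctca
Spock1: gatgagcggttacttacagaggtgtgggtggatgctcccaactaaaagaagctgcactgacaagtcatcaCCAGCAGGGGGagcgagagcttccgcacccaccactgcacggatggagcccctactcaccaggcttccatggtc
Kcnip4: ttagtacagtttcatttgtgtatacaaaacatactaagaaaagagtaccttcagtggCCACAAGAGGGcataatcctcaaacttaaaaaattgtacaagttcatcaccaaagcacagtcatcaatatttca
Mef2c: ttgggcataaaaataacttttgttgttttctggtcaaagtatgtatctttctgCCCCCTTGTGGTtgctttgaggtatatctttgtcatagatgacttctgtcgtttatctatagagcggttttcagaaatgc
Pik3r1: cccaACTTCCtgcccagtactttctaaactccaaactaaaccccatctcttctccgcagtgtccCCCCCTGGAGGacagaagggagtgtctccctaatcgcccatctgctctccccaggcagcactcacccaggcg

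The third set holds members with the EBF letters that differed between the lines at 24 h, in Gm31814 (chr16:24209008-24209149), 4930470P17Rik (chr2:170583305-170583435) and 1700113H08Rik (chr10:87098887-87099017). Only the EBF letters are in capitals.
Gm31814: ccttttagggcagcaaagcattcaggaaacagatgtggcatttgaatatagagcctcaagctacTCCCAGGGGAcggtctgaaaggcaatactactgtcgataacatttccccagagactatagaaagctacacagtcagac
4930470P17Rik: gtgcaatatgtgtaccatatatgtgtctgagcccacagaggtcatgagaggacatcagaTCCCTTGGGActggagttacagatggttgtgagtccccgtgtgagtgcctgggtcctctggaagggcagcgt
1700113H08Rik: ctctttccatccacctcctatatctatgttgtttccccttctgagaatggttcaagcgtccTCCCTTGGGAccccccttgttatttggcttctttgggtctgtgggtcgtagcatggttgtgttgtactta

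The fourth set holds other members with large differences at 24 h, in Itga5 (chr15:103361398-103361578), Sgms1 (chr19:32343247-32343377), Ninj2 (chr6:120154997-120155140) and Tmem121 (chr12:113187631-113187801). The capitals mark the Foxo letters in Itga5, CAGCTG and the Runx letters in Sgms1, CAGCTG in Ninj2, and the ETS letters, CACCTG and the CTCF core in Tmem121, where the last lies outside the central window.
Itga5: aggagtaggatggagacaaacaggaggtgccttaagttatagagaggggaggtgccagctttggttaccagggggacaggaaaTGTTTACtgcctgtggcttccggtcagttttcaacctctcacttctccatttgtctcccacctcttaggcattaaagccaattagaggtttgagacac
Sgms1: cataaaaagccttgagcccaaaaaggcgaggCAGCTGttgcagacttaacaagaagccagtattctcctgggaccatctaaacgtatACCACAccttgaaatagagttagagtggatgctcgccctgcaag
Ninj2: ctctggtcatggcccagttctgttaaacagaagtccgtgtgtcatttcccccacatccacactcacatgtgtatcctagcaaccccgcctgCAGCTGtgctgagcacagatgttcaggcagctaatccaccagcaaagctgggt
Tmem121: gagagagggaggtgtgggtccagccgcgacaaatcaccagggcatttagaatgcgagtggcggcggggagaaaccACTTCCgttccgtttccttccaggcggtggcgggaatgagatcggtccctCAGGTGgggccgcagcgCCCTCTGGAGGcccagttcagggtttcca

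Letters of 10 motifs were searched on both strands in the central 120 bp of every DHS. They were the Ikaros core TGGGAA, the ETS core GGAAGT, the Runx letters TGTGGT, the E-boxes CAGCTG and CACCTG, the AP-1 letters TGANTCA, the Foxo letters GTAAACA, the EBF letters (TCCC and GGGA with 2 bases between), the interferon-type letters (GAAA and GAAA with 2 bases between) and the CTCF core of 11 letters. A match describes the sequence and does not show that the factor is bound. At least 1 motif was present in 7536 members (71.5%), against 66.5% of all DHS.

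The CTCF core was the most frequent of the 10. It was found in 2704 members (25.6%), compared with 24.8% of all DHS, 32.3% of broad intronic DHS and 12.6% of narrow promoter DHS. Runx letters were present in 19.2% of members against 16.0% of all DHS, ETS letters in 17.3% against 17.2%, and the EBF letters in 332 members (3.15%) against 2.35%. The Ikaros core was present in 1122 members (10.6%), close to the 10.3% over all DHS. Some letters overlap: the CTCF core shared bases with CACCTG in 195 members and with the Runx letters in 76, the ETS core with the Ikaros core in 94, and the EBF letters with the Ikaros core in 41.

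The position of the letters within the members separated the motifs more than their frequency did. A CTCF core lay in 12.4% of members per 20-bp bin within 20 bp of the DHS centre but in 0.185% per bin at 300 to 500 bp, a ratio of 66.9. The EBF letters were 21.8 times as frequent at the centre as in the flanks (1.18% against 0.0540% per bin). ETS letters were 3.32 times, Runx letters 2.76 times, CAGCTG 1.91 times and CACCTG 1.70 times as frequent. The Ikaros core had no central peak, with 2.07% of members per bin at the centre and 2.07% in the flanks, a ratio of 0.997. The AP-1 letters had a ratio of 1.30, the interferon-type letters 1.17 and the Foxo letters 0.629.

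**Figure D1:**
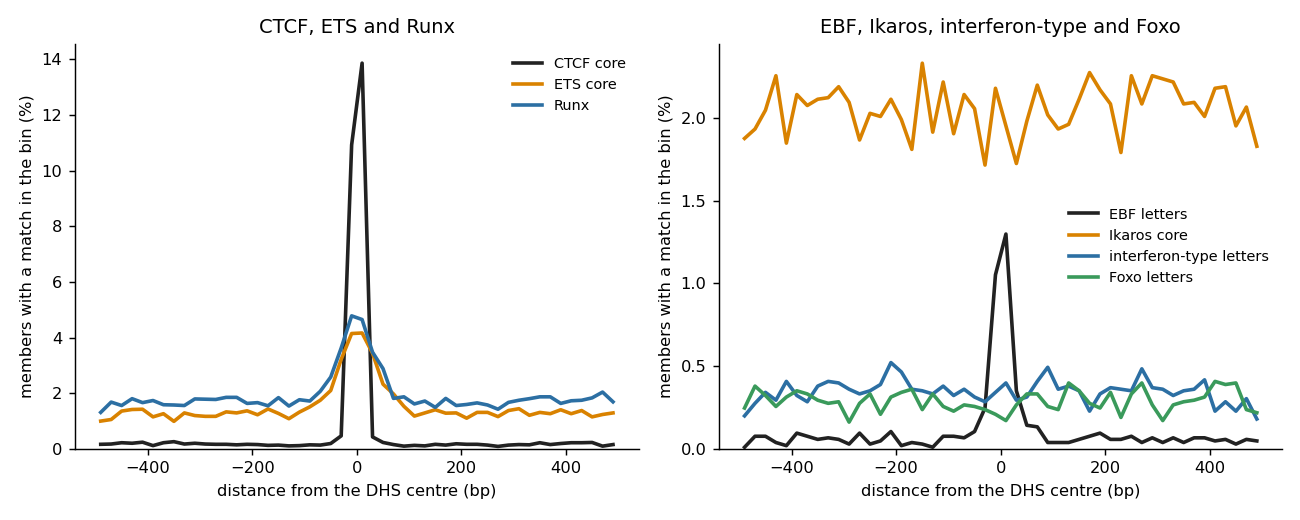
Share of the 10547 narrow intronic DHS (%) with a match in 20-bp bins, by distance from the DHS centre in bp, for 7 of the 10 motifs. The CTCF core (left) and the EBF letters (right) stand in a narrow peak at the centre and ETS and Runx letters in a wider one, while the Ikaros core has 2.07% per bin at the centre and in the flanks.

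The members were spread over 5899 host genes, of which 3707 held a single member and 308 held 5 or more. Protein-coding genes hosted 89.2% of them. The median distance to the nearest TSS was 13033 bp, with quartiles of 5209.5 and 29417.5 bp, and the most distant member lay 560744 bp away. Of the 10121 members for which an annotated intron spans the whole DHS, 3117 (30.8%) lay in the first intron. Members were single islands as a rule, since the nearest other DHS was a median of 7048 bp away, and 15.3% had another within 1000 bp. Broad intronic DHS (7698 bp, 14.8%) and narrow intergenic DHS (7157.5 bp, 15.4%) were much alike. Repeat-masked bases were absent from 49.0% of members, against 31.7% of all DHS. They covered more than 50% of the bases in 10.2%, against 5.50% of all DHS. Narrow intergenic DHS were close to the members, with 47.3% and 10.8%.

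The genes with the most members were long. Gm20388, an annotated gene model that covers 4434882 bp, held 53, followed by Pde4d, a cyclic AMP phosphodiesterase, with 28. Fgfr2, a fibroblast growth factor receptor, held 20 over an annotated gene body of 2960900 bp. The transcriptional activator gene Camta1 held 19, and 16 each lay in Gm20696 and Mctp1. Of these genes, Gm20696 had the densest cover, with 3.91 members per 100 kb, while Fgfr2 had 0.675. At 0 h, limma called 1 to 3 members of each different between the lines, among them 3 of the 53 in Gm20388 and 2 of the 28 in Pde4d, where 12.9% of all DHS were called.

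Most members were weakly open. The median of the mean level over the 36 libraries was 3.78 (log2 RPKM), with quartiles of 3.44 and 4.17, which corresponds to 13.8 RPKM. Broad intronic DHS had a median of 3.83, narrow intergenic DHS 3.78, narrow promoter DHS 4.15 and all DHS 3.95. Members thus lay close to the narrow intergenic DHS and below the narrow promoter DHS. Members with the CTCF core had a median of 3.88 and those without it 3.74. The median GC content of the central window was 50% in members and 51.7% over all DHS.

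The highest mean level, 6.95, belonged to Pax5 a, and the second, 6.43, to Pax5 b, printed above. The next were the members in Hdac7 (6.32), in Ppp2r3d, a regulatory subunit of protein phosphatase 2A (6.30), and in Ppp1r10, a regulatory subunit of protein phosphatase 1 (6.15). At 24 h Pax5 a had 6.68, 6.43 and 6.30 in the Ikaros libraries and 7.0, 7.07 and 7.36 in the control libraries, so that all 3 Ikaros values lay below the control values. The log2 difference of -0.67 (SE 0.22) was not called (adjusted p = 0.122, limma), whereas the change of the difference from 0 h to 24 h was (-1.25, SE 0.31, adjusted p = 0.0215, limma). The values of Pax5 b overlapped between the lines, with 6.68, 6.32 and 6.08 in Ikaros cells and 6.08, 6.56 and 7.13 in control cells at 24 h. Its difference was -0.23 (adjusted p = 0.778, limma). The adjusted p of the other 3 at 24 h ranged from 0.255 to 0.724 (limma). At 0 h the Ppp2r3d member was higher in Ikaros cells (0.97, adjusted p = 0.00235, limma).

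The median level of the members differed little between groups. In Ikaros cells it was 3.73 ± 0.06 at 0 h and 3.98 ± 0.03 at 24 h (mean ± SD of the library medians, n = 3), with 3.86, 3.83, 3.99 and 3.89 at 2, 6, 12 and 18 h. In control cells it was 3.96 ± 0.08 at 0 h and 3.79 ± 0.05 at 24 h, and 3.82, 3.86, 3.80 and 3.80 in between. The lines did not overlap at 0 h, where the 3 Ikaros libraries had 3.80, 3.72 and 3.68 and the control libraries 3.97, 3.87 and 4.02, nor at 24 h, where Ikaros libraries had 3.95, 3.97 and 4.02 and control libraries 3.74, 3.85 and 3.79. The order was opposite at the 2 times. Members were also separated at 12 h (Ikaros 4.03, 3.97 and 3.97, control 3.91, 3.76 and 3.75). Broad intronic DHS were separated in the same order at 0 h (Ikaros 3.81, 3.80 and 3.74, control 3.94, 3.88 and 4.00). At 24 h they were too (3.91, 3.91 and 3.92 against 3.79, 3.88 and 3.79), and so were narrow intergenic DHS at both times. Over all DHS the lines overlapped at 0 h and were separated at 24 h (4.06, 4.05 and 4.08 against 3.96, 4.03 and 3.98). After quantile normalization the means of the members in the Ikaros groups at 0, 12 and 24 h moved by more than their SD, to 3.81, 3.93 and 3.92.

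The spread between the replicates of a group was larger in the members than in wider DHS. The median SD between the 3 libraries ranged from 0.262 to 0.300 (log2) in the 5 Ikaros groups of 2 to 24 h, against 0.163 to 0.183 in broad intronic DHS. In control cells of 2 to 24 h it ranged from 0.397 to 0.572, against 0.229 to 0.341. At 0 h it was 0.509 in Ikaros cells and 0.447 in control cells. Narrow intergenic DHS had nearly the same spread as the members, with 0.268 to 0.302 in Ikaros and 0.391 to 0.574 in control cells. The ratio of the members' spread to that of broad intronic DHS ranged from 1.60 to 1.85 over the 12 groups. Between the highest and the lowest group mean, the median member spanned 1.07 and the median broad intronic DHS 0.672.

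**Figure D2:**
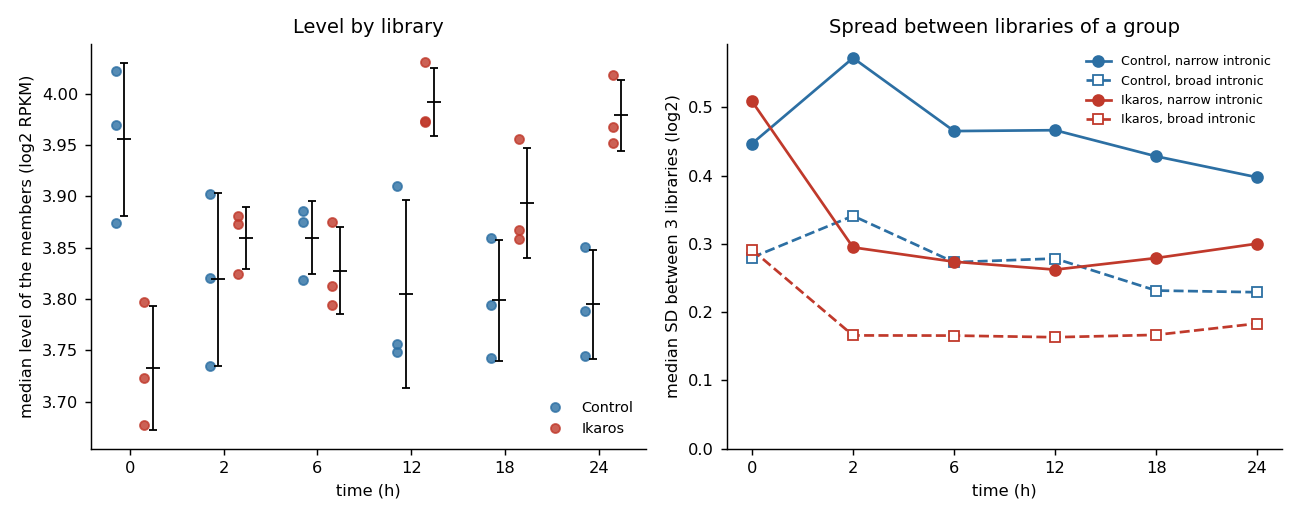
Left, median level (log2 RPKM) of the narrow intronic DHS in each library by time in h (times evenly spaced, axis not from 0), control in blue and Ikaros in red, with the mean and SD of the 3 libraries in black. Right, median SD between the 3 libraries of a group (log2) for narrow intronic DHS (filled circles) and broad intronic DHS (open squares). The narrow DHS have the larger spread in each of the 12 groups.

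Members with the CTCF core stood lowest against the other members in Ikaros cells at 0 h. Within each library, the median of the 2704 members with the core was compared with that of the 7843 without it. In the Ikaros 0 h libraries the members with the core were lower, by -0.217, -0.240 and -0.205 (log2) in replicates 4, 5 and 6. These were the 3 lowest values of the 36 libraries. In the control 0 h libraries the values were 0.253, -0.0653 and 0.142, which is a mean of 0.110 ± 0.162 (SD, n = 3). At 24 h, members with the core were higher than the others in all 6 libraries, with a mean of 0.145 ± 0.072 in Ikaros cells and 0.269 ± 0.030 in control cells.

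The same contrast was present in the broad intronic DHS, where the Ikaros 0 h libraries had -0.372, -0.329 and -0.406 and the control 0 h libraries 0.0428, -0.142 and 0.0939. Control 2 h replicate 4 was near them in the broad DHS, with -0.319, and had -0.114 in the narrow ones, apart from 0.262 and 0.269 in the other two control 2 h libraries. In members, the median log2 difference between the lines at 0 h was -0.49 with the CTCF core and -0.15 without it. The gap of -0.34 between them exceeded the spread between libraries (combined SD 0.163), and it ranged from -0.40 to -0.27 when replicate 4, 5 or 6 was left out. After the smooth dependence on level, GC content and width was subtracted from every library (called trends removed from here on), the medians were -0.24 and 0.074. Without that subtraction, the gap was also beyond the combined SD at 6 h (-0.23, SD 0.154), 18 h (-0.20, SD 0.065) and 24 h (-0.13, SD 0.077). It was within the SD at 2 h (-0.051, SD 0.254) and 12 h (-0.081, SD 0.092). These are medians over many DHS of the same libraries, and no test was made of them. The median GC content was 50% with and without the core.

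**Figure D3:**
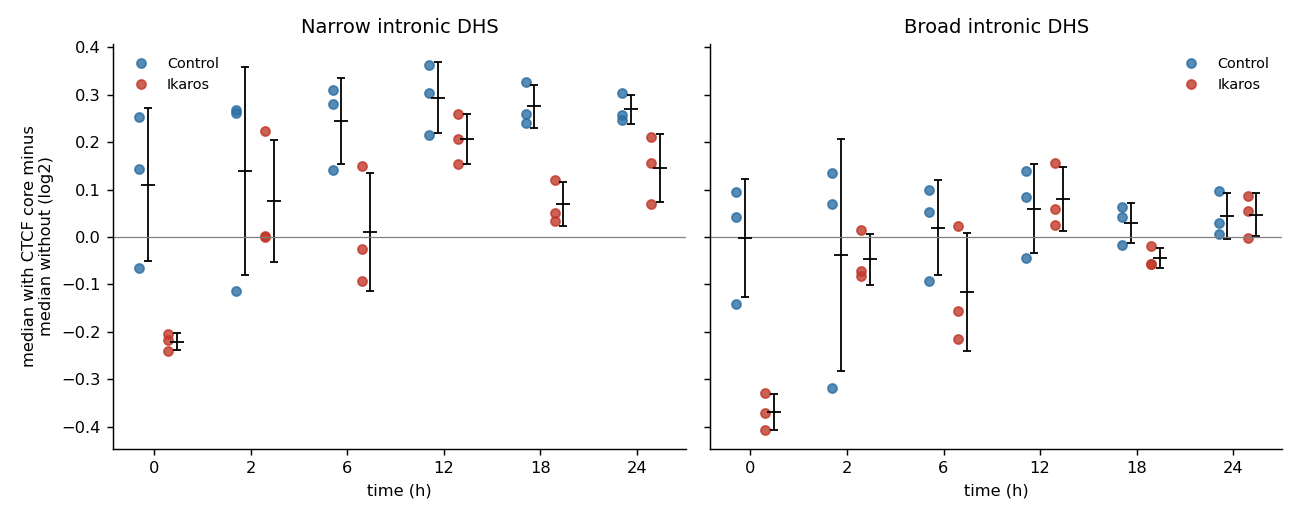
Median level of the DHS with the CTCF core minus that of the DHS without it (log2) in each library by time in h (control blue, Ikaros red), for narrow intronic DHS (left) and broad intronic DHS (right), with the mean and SD of the 3 libraries in black. The Ikaros 0 h libraries lie between -0.240 and -0.205 on the left, below each of the other 33 libraries.

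Differences between the lines were tested DHS by DHS with limma on the whole table, and a DHS was called where the Benjamini-Hochberg adjusted p was under 0.05. The authors' noise correction came before this test, so that p-values may be too small and counts too high, which was not tested. At 0 h, 731 members were called (6.93%), against 12.9% of all DHS. Of these, 639 were lower in Ikaros cells (6.06%, against 5.04% of all DHS) and 92 were higher (0.872%, against 7.81%). The median member differed by -0.24 (log2), and the median of all DHS by -0.060. Among members with the CTCF core, 300 were called lower and 3 higher, and among those without it 339 were called lower and 89 higher. With the core 11.2% were called, against 12.3% of all DHS with it (1419 lower and 190 higher). Without the core 5.46% were called, against 13.0% of all DHS without it (1243 lower and 3935 higher). With trends removed, 54 with the core were lower and 2 higher, whereas 45 without it were lower and 90 higher. Most lower calls were thus lost both with the core (300 to 54) and without it (339 to 45). The number of higher calls without the core hardly changed (89 to 90), and whether these were the same members is not given. Leaving out control 0 h replicate 4 gave 427 members, and leaving out control 0 h replicate 6 gave 240. The count was 470 after quantile normalization, 191 with trends removed (92 higher and 99 lower) and 97 with a separate spread for every group. With trends removed the share called was 1.81% of members and 2.96% of all DHS, so that it fell in the whole table. Where only the 2 groups of 0 h entered the limma fit, 0 members were called, with 1477 at an unadjusted p under 0.05.

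At 0 h the libraries of the lines were separated in 1641 members (15.6%), against 23.6% of all DHS, and in 594 of the 731 called members. Of these 594, 28 were called in all 9 fits that left out 1 replicate number or 1 library. The rule for naming members by their differences, given under processing, required separated libraries. Separation in members so named is a condition of the choice and adds no support. The member in Ntm (chr9:29250941-29251075), which encodes the neuronal adhesion protein neurotrimin, had 2.15, 2.20 and 3.33 in Ikaros 0 h libraries and 4.37, 4.56 and 4.96 in control libraries, a log2 difference of -2.07 (SE 0.32, adjusted p = 0.000284, limma). The Gm12239 member, printed above, had 0.24, 2.91 and 2.65 against 4.23, 3.89 and 5.14 (-2.49, SE 0.47, adjusted p = 0.00138, limma). In both members the control libraries lay above every Ikaros library, and in Gm12239 the value of Ikaros replicate 4 lay below the others.

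Other members lower in Ikaros cells at 0 h lay in Galntl6, which encodes a GalNAc-transferase-like protein (-2.70, adjusted p = 0.00157), in Spock1, a proteoglycan gene (-1.87, adjusted p = 0.00188), and in the zinc finger gene Zfp934 (-1.83, adjusted p = 0.000858, all limma). The Galntl6 values in Ikaros cells were -0.17, 2.15 and 3.71, and the control values 4.49, 4.59 and 4.73. Galntl6, Gm12239 and Spock1 hold a CTCF core near the centre, as the sequences show, and Ntm and Zfp934 hold none. These 5 were not called at 24 h (limma, adjusted p from 0.56 to 0.868).

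In the opposite direction, the member in intron 1 of Kdm6b (chr11:69409455-69409541), which encodes a histone H3 lysine 27 demethylase, had 6.58, 6.63 and 5.50 in Ikaros 0 h libraries and 4.82, 4.54 and 4.50 in control libraries (1.62, SE 0.27, adjusted p = 0.000501, limma). Rcc2, a regulator of chromosome condensation, held a member (chr4:140702675-140702805) with 6.14, 5.44 and 4.86 against 3.35, 3.37 and 2.67 (2.35, SE 0.43, adjusted p = 0.00105, limma). The other named members higher at 0 h were in Fbxl17, an F-box gene (1.5), Dtx1, a ubiquitin ligase gene of the Notch pathway (1.44), and Map2k2, which encodes the kinase MEK2 (1.14). Separated libraries were a condition for naming all 5. GC content was high in both Rcc2 (84.0%) and Kdm6b (73.6%), and the Rcc2 member was not called with trends removed (0.90, adjusted p = 0.0997, limma).

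At 24 h, 93 members were called (0.882%), against 1.33% of all DHS. Of these, 71 were higher in Ikaros cells (0.673%, against 0.809%) and 22 were lower (0.209%, against 0.517%). The share called was thus below that of the whole table. The median member was higher by 0.17 (log2). The Ikaros and control libraries were separated in 2389 members (22.7%), against 25.5% of all DHS, and in 92 of the 93 called members. The count depended on each of the 6 libraries: it was 25, 39 and 36 without control 24 h replicate 4, 5 or 6, and 11, 20 and 35 without Ikaros 24 h replicate 4, 5 or 6. Of the 92, 0 were called in all 9 limma fits that left out a replicate number or a library, and 36 in none of them. With trends removed 27 members were called (0.256%, against 0.589% of all DHS), of which 11 were higher and 16 lower. With a separate spread for every group the count was 570, all 93 among them.

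**Figure D4:**
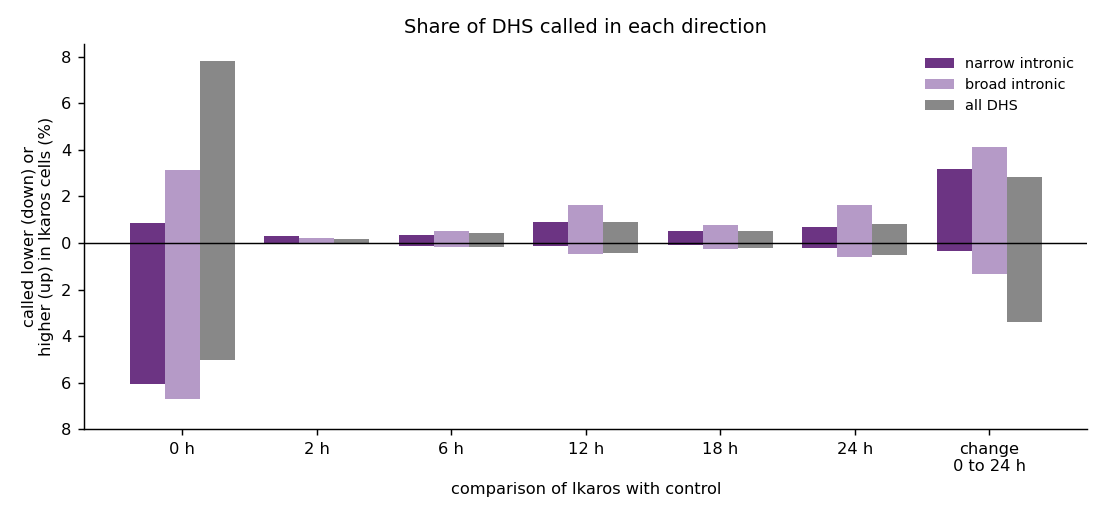
Share of DHS (%) called higher (upward bars) or lower (downward bars) in Ikaros than in control cells at each time, for narrow intronic, broad intronic and all DHS, and for the change of the difference from 0 h to 24 h, by limma at an adjusted p under 0.05. At 24 h, 0.882% of narrow intronic DHS and 1.33% of all DHS were called.

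The member in 4930470P17Rik, a gene of unknown role, was called in 8 of the 9 fits, the most of any member at 24 h. It had 3.55, 3.99 and 3.87 in Ikaros libraries and 5.67, 5.26 and 5.72 in control libraries, a log2 difference of -1.75 (SE 0.24, adjusted p = 0.000253, limma). The separation of its libraries was a condition for naming it. It is 1 of 2 members that were called at each of 2, 6, 12, 18 and 24 h, with differences from -1.0 to -1.78, and it was also called at 0 h (-0.72, adjusted p = 0.0419, limma). Repeat-masked bases cover 62.6% of it, and the EBF letters lie at its centre.

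The other member called at every time lay in intron 3 of Tbc1d16 (chr11:119191862-119191999), a gene for a Rab GTPase-activating protein. At 24 h it had 4.95, 4.72 and 5.00 in Ikaros libraries and 6.14, 5.91 and 5.98 in control libraries (-1.11, SE 0.21, adjusted p = 0.00691, limma). The difference at 0 h was -1.0 (adjusted p = 0.00308, limma), so that the change from 0 h to 24 h was small (-0.12, adjusted p = 0.84, limma). The lines were separated at both times. In the Tmem121 member, 1701 bp from a TSS of this membrane protein gene, Ikaros libraries had 3.68, 3.69 and 4.03 and control libraries 5.37, 5.43 and 4.71 (-1.38, SE 0.22, adjusted p = 0.00169, limma), with no overlap.

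The member in Pik3r1, which encodes the regulatory subunit p85 of phosphoinositide 3-kinase, had 4.28, 4.33 and 4.30 in Ikaros and 5.81, 5.26 and 5.56 in control libraries at 24 h (-1.24, SE 0.25, adjusted p = 0.0126, limma). At 0 h its values had been 5.55, 5.67 and 5.84 in Ikaros cells and 5.54, 5.10 and 4.80 in control cells. The Ikaros libraries lay above the control libraries at 0 h, where the difference of 0.54 was not called (adjusted p = 0.155, limma), and below them at 24 h. The member was called in 3 of the 9 fits at 24 h. The remaining named members lower at 24 h were in 1700113H08Rik (-1.70), Zfand3 (-1.38), Tead2, a partner of YAP in transcription (-1.23), Adamtsl5, a gene for an extracellular matrix protein (-1.20), Mier3 (-1.13) and the nuclear factor I gene Nfic (-0.80), and these were called in 1 to 3 of the 9 fits. With the replicate number as a block the Adamtsl5 member was no longer called (adjusted p = 0.0575, limma).

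Among members higher in Ikaros cells at 24 h, the member in intron 2 of Gm47680 (chr9:32617483-32617655), a long noncoding RNA gene model, had 6.00, 5.79 and 5.48 in Ikaros and 4.12, 4.40 and 3.99 in control libraries (1.58, SE 0.27, adjusted p = 0.00346, limma). Gm31814, another gene model, held a member with 4.87, 5.11 and 4.91 against 2.85, 3.27 and 3.18 (1.86, SE 0.32, adjusted p = 0.00297, limma). The member in intron 1 of Itga5, the integrin α5 chain of the fibronectin receptor, had 4.88, 4.76 and 4.87 against 3.18, 2.59 and 3.43 (1.77, SE 0.31, adjusted p = 0.00384, limma). None of these 3 differed between the lines by more than 0.17 at 0 h, and separated libraries at 24 h were a condition for naming them. The Gm47680 and Itga5 members were also called at 6, 12 and 18 h.

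The member in Sgms1, which encodes sphingomyelin synthase 1, had 5.10, 4.48 and 4.04 in Ikaros and 1.89, 2.57 and 1.86 in control libraries (2.43, SE 0.40, adjusted p = 0.00232, limma). Here too, separated libraries were a condition for naming the member. The other named members higher at 24 h were in Eml5, a microtubule-associated protein gene (2.52), Gpr176, an orphan receptor gene (1.97), Kcnip4, a potassium channel interacting protein gene (1.92), Baiap2l1, a gene for an actin-binding membrane adaptor (1.75), Adgrv1, an adhesion receptor gene (1.69), and Ninj2, a gene for an adhesion protein (1.15). They were called in 4 to 6 of the 9 fits. With trends removed, the members in Adgrv1, Ninj2, Itga5, Sgms1, Gm31814 and Gm47680 were called and those in Eml5, Gpr176, Kcnip4 and Baiap2l1 were not (limma, adjusted p from 0.0512 to 0.181).

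**Figure D5:**
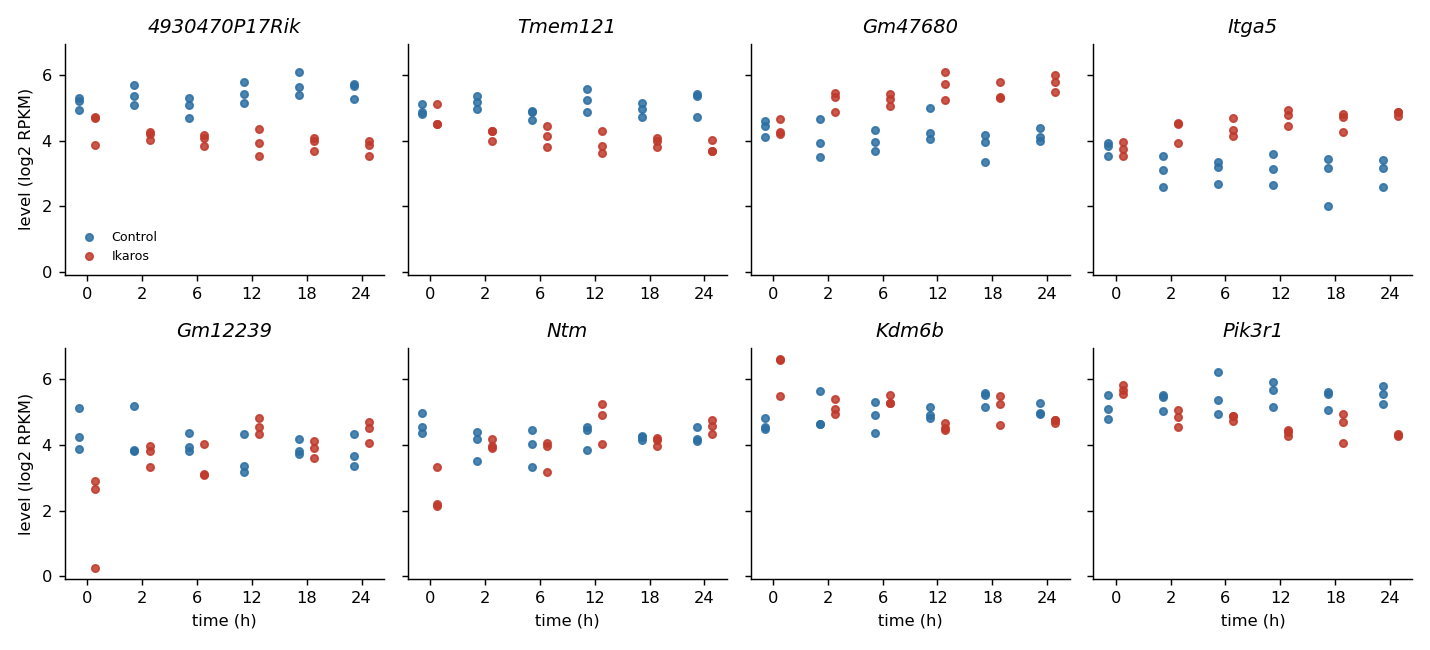
Level (log2 RPKM) of 8 named narrow intronic DHS in each of the 36 libraries by time in h (evenly spaced), control in blue and Ikaros in red. In 4930470P17Rik and Tmem121 the Ikaros libraries lie lower at 24 h and in Gm47680 and Itga5 higher, Gm12239 and Ntm are low in Ikaros cells at 0 h, Kdm6b is high there, and in Pik3r1 the Ikaros libraries lie above the control libraries at 0 h and below them at 24 h.

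Differences at 24 h went with the base composition and the level of the members. In the GC quartile with the lowest values (25 to 44.9%), the median difference was 0.55, with 52 called higher and 1 lower, and the 1 was the member in Zfand3. The share called in it was 2.01%, against 1.33% of all DHS. In the quartile with the highest values (53.5 to 84.0%), the median difference was -0.046, with 5 higher and 11 lower (0.607% called). With trends removed, 0 were called higher and 5 lower in the first of these quartiles, and 5 higher and 6 lower in the last (limma, 208 and 198 at an unadjusted p under 0.05). Pearson's r between GC content and the difference was -0.45 over the 10547 members, which share the same 6 libraries. In the quartile with the lowest mean level the median difference was 0.50 with 33 higher and 0 lower (1.25% called). In the quartile with the highest level it was -0.089 with 4 higher and 21 lower (0.948%). Both shares are below the 1.33% of all DHS called in either direction. In the former every call was higher, and its 1.25% is above the 0.809% of all DHS called higher. In the latter 21 of 2637 members were lower, against 0.517% of all DHS. With trends removed the counts were 1 and 0 in the former and 2 and 13 in the latter. At 0 h the r with GC content was 0.14. Narrow intergenic DHS had an r of -0.47 at 24 h. With trends removed, the median differences of the members were -0.0069 at 0 h and 0.0053 at 24 h.

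Members with Runx letters had a median difference of 0.28 at 24 h, with 22 called higher and 0 lower, and those without them 0.15, with 49 higher and 22 lower. The share called was 1.08% with Runx letters, against 1.33% of all DHS in either direction. Every call with Runx letters was higher, and 1.08% is above the 0.809% of all DHS called higher. With trends removed 3 members with Runx letters were called higher and 2 lower, and after quantile normalization 26 and 4. For members with the Ikaros core the median was 0.059 with 4 called higher and 2 lower (3 and 5 after quantile normalization), and without it 0.18. The share called with the Ikaros core was 0.535%, below the 1.33% of all DHS. With the trends removed the medians were 0.074 with Runx letters and -0.074 with the Ikaros core. Of the 332 members with the EBF letters, 3 were called higher and 3 lower at 24 h, which is 1.81%, against 1.33% of all DHS. With trends removed 1 was higher and 2 were lower. These splits share libraries and base composition, and they were not tested.

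Between 0 and 24 h the counts were small. At 2 h, 35 members were called (0.332%, against 0.195% of all DHS), of which 32 were higher in Ikaros cells (background 0.17%) and 3 lower (0.0246%). The count was 21 with the replicate number as a block. It was 164 without control 2 h replicate 5, 102 without control 2 h replicate 6, and 6, 5 and 9 without Ikaros 2 h replicate 4, 5 or 6. At 6 h, 51 were called (0.484%, against 0.578%), 37 of them higher (background 0.422%) and 14 lower (0.155%), or 25 higher and 4 lower with trends removed, while leaving out control 6 h replicate 4 or 5 gave 119 and 29, and leaving out Ikaros 6 h replicate 4, 5 or 6 gave 15, 11 and 4.

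At 12 h, 109 members were called (1.03%, against 1.31%), 95 of them higher (background 0.887%) and 14 lower (0.428%), or 69 in all with the block. With trends removed, 5 were higher and 6 lower, a share called of 0.104%, against 0.252% of all DHS. Leaving out control 12 h replicate 5 gave 44, and leaving out Ikaros 12 h replicate 4, 5 or 6 gave 14, 24 and 3. At 18 h, 62 were called (0.588%, against 0.699%), 54 of them higher (background 0.5%) and 8 lower (0.199%), and the count was 37 without control 18 h replicate 4 and 13, 18 and 13 without Ikaros 18 h replicate 4, 5 or 6. Of the members called at 12 h, 64 were also called at 24 h in the same direction (58.7% of those at 12 h and 68.8% of those at 24 h), and the comparisons at these times are not independent, as described above. Of the 731 members called at 0 h, 8 were called at 24 h, 6 of them in the same direction. At no time from 0 to 24 h were 9600 members (91.0%) called. The overlaps and this share were counted in the members only. Without the same values over all DHS they are not shown to be particular to the members.

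The difference between the lines changed from 0 h to 24 h in 372 members (3.53%), against 6.26% of all DHS. It rose in 336 (3.19%, against 2.85%) and fell in 36 (0.341%, against 3.4%). With trends removed it rose in 4 and fell in 9, a share called of 0.123%, against 0.332% of all DHS. Of the 248 called members whose libraries were separated at 24 h, 0 were called in all 15 limma fits that left out a replicate number or a library, and the most fits passed by a member was 14. The median change was 0.42 in members and 0.12 over all DHS. The difference at 0 h was the larger of the 2 in 232 of these members, and 194 were called at 0 h but only 41 at 24 h. With the CTCF core, members had a median change of 0.61 and those without it 0.36, or 0.21 and -0.048 with trends removed. Leaving out control 0 h replicate 4, 5 or 6 changed the count to 243, 608 and 134, and it was 162 and 238 without control 24 h replicate 4 or 6, and 133, 133 and 189 without Ikaros 24 h replicate 4, 5 or 6. With only the 4 groups in the fit 5 members were called.

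Both members called at 0 h, at 24 h and for the change moved from lower to higher. In Vwf, the von Willebrand factor gene, the member in intron 18 (chr6:125622574-125622710) had 2.90, 3.03 and 2.72 in Ikaros and 4.93, 3.36 and 4.32 in control cells at 0 h, and 4.80, 4.85 and 4.31 against 2.64, 2.50 and 2.76 at 24 h. The lines were separated at both times, in opposite order, and the change was 3.34 (SE 0.61, adjusted p = 0.00602, limma). The second lay in intron 1 of Tpd52 (chr3:8971749-8971916), named after its values were seen, where the difference went from -1.14 at 0 h to 1.69 at 24 h (change 2.83, adjusted p = 0.00637, limma).

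The other named rises were in Sorl1, a sorting receptor gene (3.27, SE 0.64, adjusted p = 0.00799), in Etfa, a gene of the electron transfer flavoprotein (3.03, adjusted p = 0.0114), in Kcnip4 (2.59, adjusted p = 0.00637), and in Pik3c2a, a phosphoinositide 3-kinase gene of class II (2.33, adjusted p = 0.00901, all limma). The Sorl1 values in Ikaros cells went from 2.10, 0.30 and 3.77 at 0 h to 4.77, 4.68 and 4.82 at 24 h, while the control values were 3.54, 4.22 and 4.31 and then 3.75, 3.82 and 2.78. The Ikaros libraries were widely spread at 0 h and close together at 24 h. The named falls were in Kdm6b (-1.94, adjusted p = 0.00717), Pik3r1 (-1.79, adjusted p = 0.0088), Map2k2 (-1.76, adjusted p = 0.00717), Gm20696 (-1.69, adjusted p = 0.0123) and 9330179D12Rik (-1.69, adjusted p = 0.0163, all limma). In Kdm6b the Ikaros values fell from 6.58, 6.63 and 5.50 to 4.77, 4.77 and 4.68, and the control values were 4.82, 4.54 and 4.50 and then 4.94, 5.27 and 4.96.

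Over the whole time course, 179 members changed in Ikaros cells (1.70%, against 2.29% of all DHS; limma F-test) and 36 in control cells (0.341%, against 0.148%). The Ikaros count was 29 and 66 without Ikaros 0 h replicate 4 or 5, 95, 115 and 94 without Ikaros 12 h replicate 4, 5 or 6, and 110 and 112 without Ikaros 24 h replicate 4 or 5. The control count was 20 with the replicate block. It was 70 and 13 without control 0 h replicate 4 or 6, 107 and 72 without control 2 h replicate 5 or 6, and 65 and 21 without control 6 h replicate 4 or 5. A limma fit of the 18 libraries of a single line gave 701 members for Ikaros cells. For control cells it gave 0, and 780 at an unadjusted p under 0.05.

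Genes of 9 lists were looked up among the host genes, and shares called are to be read against the background given above for each comparison. Of 36 B-lineage regulator genes, 23 held 88 members, with a median level of 3.95 and the CTCF core in 9.09%, below the 25.6% of all members. At 24 h, 1 of these was called. It lay in Mef2c, a MADS-box factor of B cells, with 5.29, 4.97 and 4.32 in Ikaros and 3.02, 3.28 and 3.14 in control libraries (1.71, SE 0.44, adjusted p = 0.0444, limma), with separate libraries but a pass in 0 of the 9 fits. At 0 h a member in Erg (0.82) and a pair in Bach2 (0.76 and 1.01), both genes of transcription factors, were higher. Over the 88 the median difference was 0.0055 at 0 h and 0.071 at 24 h, or 0.13 and -0.067 with trends removed, where limma called 0 at 24 h (9 at an unadjusted p under 0.05). The change was called as a rise in Mef2c (2.81) and Tcf4 (1.89) and as a fall in Pax5 (-1.25).

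Of 39 genes of pre-B receptor signalling, 22 held 76 members, and the member in Pik3r1 was the 1 called at 24 h. At 0 h limma called 0 of them, with 9 at an unadjusted p under 0.05. The list of cytokine and growth factor receptor signalling held 18 members in 11 of 23 genes, with 0 called by limma at 0 h (3 at an unadjusted p under 0.05) and 0 at 24 h (0 at an unadjusted p under 0.05). Its smallest p at 24 h was in Il7r, the interleukin-7 receptor, with 3.87, 4.17 and 3.85 in Ikaros and 2.82, 3.90 and 2.41 in control libraries (0.92, SE 0.46, adjusted p = 0.358, limma), which overlapped.

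Adhesion, migration and cytoskeleton genes held 68 members in 20 of 34 genes. At 24 h the members in Itga5 (1.77) and in Ptk2b, a kinase gene of the focal adhesion kinase family (1.29, adjusted p = 0.0258, limma), were higher. At 0 h 5 were lower: in Elmo1 (-1.86), Tiam1 (-1.63) and Dock2 (-0.98), regulators of Rac, in Itga6 (-1.09), another integrin chain, and in Arhgef3 (-0.80), a guanine nucleotide exchange factor. The change was a rise in all 6 members called for it (8.82%), in Dock10 (2.84), at another site of Elmo1 (2.78), a pair in Itga5 (2.18 and 1.80), Itga6 (1.66) and Tiam1 (1.52). The median change was 0.48 over the 68 members and 0.42 over all members. With trends removed limma called 1 lower at 0 h, 1 higher at 24 h and 0 for the change (11 at an unadjusted p under 0.05), and the median change was 0.048.

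Cell cycle genes held 20 members in 9 of 24 genes, with 0 called by limma at 0 h (4 at an unadjusted p under 0.05) and at 24 h (1 at an unadjusted p under 0.05). The change was called in Rb1 (2.11, adjusted p = 0.0361, limma), the retinoblastoma gene, and with trends removed in 0 members of the list (limma, 3 at an unadjusted p under 0.05). Subunits of NuRD and SWI/SNF held 24 members in 13 of 25 genes, 9 of them with the CTCF core, and at 0 h Smarca2 was higher (1.48) and Arid1b (-1.13) and Smarca4 (-0.91) lower. The smallest p at 24 h was in Bcl7c (-0.93, adjusted p = 0.0886, limma). Glycolysis and glucose uptake genes held 13 members in 8 of 26 genes, of which those in the glucose transporter gene Slc2a3 (-1.17) and the hexokinase gene Hk2 (-0.77) were lower at 0 h, and the smallest p at 24 h was in Pfkfb3 (-0.88, adjusted p = 0.21, limma). With trends removed limma called 0 members of either list at 0 h (5 remodelling and 1 glycolysis member at an unadjusted p under 0.05).

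Markers of T-lineage and myeloid cells held 28 members in 10 of 29 genes. Their median level was 3.90. At 0 h limma called 0 of them, with 2 at an unadjusted p under 0.05, and the median difference was -0.13 at 0 h and 0.11 at 24 h. Both medians changed sign with trends removed, to 0.15 and -0.10. Large neuronal genes held the most members of any list, 140 in 34 of 44 genes, with a low median level of 3.54 and the CTCF core in 48 (34.3%). At 0 h 12 of them were lower and 0 higher (8.57%), among them members in Cntn4, Cdh13 and Galntl6, and the median was -0.44. For the change 12 rose and 0 fell, with a median of 0.88. At 24 h the members in Kcnip4 (1.92) and in Astn2, a neuronal adhesion gene (1.44, adjusted p = 0.0476, limma), were higher, and Astn2 was not called with the replicate block (adjusted p = 0.0512, limma). With trends removed limma called 2 lower at 0 h, 0 at 24 h (6 at an unadjusted p under 0.05) and 0 for the change (17 at an unadjusted p under 0.05), and the medians were -0.11 at 0 h and 0.31 for the change. The GC content of these members was also low, with a median of 45.6%.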

How the data were processed

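DNase-seq was measured in 36 libraries, 3 for each of 2 lines at 6 times. Per the study's methods, the authors mapped reads to mm10 with Bowtie2 (named Bowtie in the submitters' processing notes), called narrow and broader peaks per replicate with HOMER, merged them into consensus DHS and counted reads with bedtools. They deposited 1 table of log2 values (RPKM combined with TMM scaling, then filtered for noise of no assigned source with ARSyN) with a chromosome, start and end for each DHS. The log base is not stated and was taken as 2, since base 2 gives 369487 to 432755 reads inside DHS per 1000000 mapped reads and base e gives more than 1000000. Counts per DHS were not used here, so that no counting interval or floor is given, and the number of libraries limits the precision. Library medians ranged from 3.90 to 4.11, and the highest correlation between libraries was 0.920, with no duplicate.

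Each DHS was tested with limma 3.58.1 in R 4.3.3 (12 group means, 36 libraries, moderated variance with an intensity trend, two-sided) on all 52788 DHS, with Benjamini-Hochberg adjustment over the whole table and a threshold of 0.05. Annotation, letters and summaries were computed in Python 3.11.15 with numpy 2.4.6 and pandas 2.3.3. A DHS start that counts from 0 would give 10551 members. P-values measure the spread between these libraries after the noise correction by the authors. They may be too small for that reason, which was not tested. On simulated data for 24 h, 68 of 100 members changed by 2 (log2) and 10 of 100 changed by 1 were recovered, with 4 false calls among the unchanged of 52788 DHS. The simulated noise was normal and independent between DHS, with no trends with GC content or level and no noise filter. The simulation therefore does not give the number of false calls in the real data.

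The replicate number marks a batch in the labels. The deviations from the group means correlated with a mean r of -0.0127 over 198 pairs of same-numbered libraries of different groups (-0.328 to 0.342), after the noise correction by the authors. Fits with the replicate number as a block, quantile normalization, trends removed (natural splines of level, GC content and log width subtracted per library), a separate spread per group, the lowest 20% of DHS by mean level left out, only the groups compared, and each replicate or library left out were alternatives.

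Named members were those called with separated libraries in the order of the number of leave-out fits passed and then of size (10 in each direction at 24 h, 5 at 0 h and 5 for the change), those called at 24 h in the gene lists (otherwise the smallest p), the 5 highest mean levels and the genes with the most members. The members, lists and tests were chosen with earlier results of these data known. Results for a few genes of the lists are not reported here.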

Additional observations from a re-analysis of the deposited data

Results flagged for a closer look

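The difference between Ikaros and control cells changed from 0 h to 24 h, by the limma contrast of the differences, in 372 members, and in 31 of the named members. Of the 248 whose libraries were separated at 24 h, 0 were called in all 15 limma fits that left out a replicate number or a library, and with trends removed 4 rises and 9 falls were called. Rises of this difference, on the log2 scale, were found in Eml5 (3.39), Vwf (3.34), Sorl1 (3.27), Gm12239 (3.13), Etfa (3.03), Galntl6 (2.98), Mef2c (2.81), Sgms1 (2.69), Kcnip4 (2.59), Astn2 (2.50), Gpr176 (2.44), Ntm (2.35), Pik3c2a (2.33), Zfp934 (2.29), Spock1 (2.14), Rb1 (2.11), Gm31814 (2.03), Itga5 (1.80), Ninj2 (1.64), Adgrv1 (1.61) and Gm47680 (1.60). Falls were found in Kdm6b (-1.94), Pik3r1 (-1.79), Map2k2 (-1.76), 1700113H08Rik (-1.75), Gm20696 (-1.69), 9330179D12Rik (-1.69), Mier3 (-1.43), Pax5 a (-1.25), Tmem121 (-1.16) and Ppp2r3d (-1.16).

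For Galntl6, Gm12239, Ntm, Sorl1, Spock1, Zfp934, Kdm6b, Map2k2, Gm20696, 9330179D12Rik and Ppp2r3d the larger of the 2 differences was the one at 0 h, when cells were collected apart from the other times, and the part of that collection in the change was not tested.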

How the results depend on the processing

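The count of called members depended on the processing at every time, and the cause was not tested. With the replicate number as a block it was 21 at 2 h, 69 at 12 h and 20 for change over time in control cells, and no other count moved by more than 1.5 times, while 51 of 53 named members kept their side of the threshold (not Astn2 and Adamtsl5). After quantile normalization the counts were 470, 4, 29, 38 and 28 at 0, 2, 6, 12 and 18 h, 150 for the change from 0 h to 24 h and 0 over time in control cells (limma, 1000 at an unadjusted p under 0.05). With trends removed they were 191, 21, 29, 11, 29 and 27 at 0, 2, 6, 12, 18 and 24 h, 13 for the change (4 rises and 9 falls), and 49 and 17 over time in Ikaros and control cells. These times gave shares of 1.81%, 0.199%, 0.275%, 0.104%, 0.275% and 0.256% of members. Over all DHS the shares were 2.96%, 0.133%, 0.421%, 0.252%, 0.377% and 0.589%. For the change they were 0.123% of members and 0.332% of all DHS. With a separate spread per group the counts were 97, 8, 111, 188, 323 and 570, 197 for the change and 0 over time in control cells (712 unadjusted). Without the lowest DHS, which leaves fewer members tested, they were 17, 33, 61, 35 and 53 at 2, 6, 12, 18 and 24 h and 10 over time in control cells. With only the groups compared, which leaves fewer libraries, they were 0, 0, 1, 0, 3 and 201 (1477, 1001, 1860, 2262, 2111 and 2503 unadjusted), 5 for the change, and 701 and 0 over time in Ikaros and control cells (780 unadjusted in the latter).

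Leaving out 1 replicate number or library gave (limma) 230 to 899 called members at 0 h, 5 to 164 at 2 h, 0 to 119 at 6 h, 1 to 140 at 12 h, 0 to 62 at 18 h, 1 to 39 at 24 h, 41 to 608 for the change, and 0 to 268 and 12 to 141 over time in Ikaros and control cells. The median difference of the members moved under quantile normalization to -0.13, 0.048, 0.0071 and 0.042 at 0, 12, 18 and 24 h and to 0.18 for the change. With trends removed it was -0.0069, -0.029, -0.00032, -0.012 and 0.0053 at 0, 2, 12, 18 and 24 h and 0.019 for the change, which reverses its sign at 2, 12 and 18 h. For the CTCF core, the gap between medians moved by more than the spread between libraries only at 12 h under quantile normalization, to 0.014. It stayed within that spread in the other 20 values and without any replicate number. The spread is wide at 2 h (combined SD 0.254), where the gap of -0.051 ranged from -0.25 to 0.056 without a replicate number and changed sign. The trends removed, quantile, block and replicate settings for the CTCF gap, and the trends removed setting for the median and for the lists and quartiles, were chosen after seeing the data.

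Among uncalled members the difference at 24 h changed sign in Pax5 b (0.0052 with trends removed, 0.18 without replicate 6, 0.040 without control 24 h replicate 6, range -0.64 to 0.18 with a replicate or library left out), in Ppp2r3d (0.014 after quantile normalization, 0.0086 without replicate 6, range -0.35 to 0.0086) and in Ppp1r10 (0.13 without replicate 6, range -0.48 to 0.13). Over the named members 261 of 311 values under the other settings kept direction and side of the threshold, and 398 of 537 with a replicate or library left out. A distance of more than 2000 bp from a TSS gave 9701 members and a width of at most 150 bp 8956. At this number of libraries a change of 1 (log2) was mostly not recovered on simulated data, so that an uncalled member is not shown to be unchanged.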
